A study of Mus musculus with 13 samples.

Results

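The tumour necrosis factor (TNF) superfamily was followed through 46 genes, 19 ligands and 27 receptors, in the right brain hemisphere of mice that carry nlsYAP5SA, a nuclear and hyperactive form of the transcriptional co-activator YAP1. The genes were taken by symbol: every protein-coding gene of the table whose mouse symbol starts with Tnfsf or Tnfrsf, with Tnf, Lta, Ltb, Ltbr, Fas, Fasl, Cd40, Cd40lg, Cd27, Cd70, Eda, Edar, Eda2r and Ngfr, which gave 46 of the 21695 protein-coding genes. One further match, Tnfsf13os, is an antisense RNA and was left out.

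RNA was sequenced from 13 hemispheres at postnatal day 11, 1 library per mouse. The 5 nlsYAP5SA mice had the genotype NexCre +/- YAP5SAnls +/-. The 5 controls, NexCre -/- YAP5SAnls +/-, carried the transgene without the recombinase that switches it on. The 3 C57BL/6J mice were wild type, on the strain background that all groups share. Cre was driven from the Nex (Neurod6) locus, which is active in neuronal precursors of the forebrain, and the tumours were not dissected from the hemisphere, so each value is an average over tumour and surrounding brain. In bulk RNA of this kind, more cells of a type and more RNA per cell cannot be told apart.

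TNF superfamily ligands are made as membrane proteins, many of which are also released by proteases, and act as trimers that draw receptor chains together. A group of receptors carries a death domain and can start apoptosis or necroptosis, another group recruits TRAF adaptors and mostly feeds NF-κB and kinase signalling, and decoy receptors bind ligand without a full signalling tail. In the brain, microglia and astrocytes are known sources and targets of TNF, and several receptors of the family, such as Ngfr and Tnfrsf21, have roles in neural development.

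Libraries held between 20871566 and 25524349 estimated counts. Levels are given as CPM, the counts of a gene scaled to a common library total, and levels of different genes are compared only as CPM per kilobase of exon. Yap1 was measured at 19.9 to 22.3 CPM in controls and 22.6 to 26.6 CPM in nlsYAP5SA hemispheres, and Ccn1, a known YAP1 target, at 2.93 to 5.87 and 17.2 to 29.6 CPM. The labels gave no sex, but the summed level of 4 Y-linked genes separated the libraries. It was at 90.9 to 129 CPM in all 5 controls, at 130 and 135 CPM in nlsYAP5SA replicates 3 and 4, and at most 0.0941 CPM in nlsYAP5SA replicates 1, 2 and 5. Of the C57BL/6J libraries, replicates 1 and 3 were at 119 and 143 CPM and replicate 2 at 0. The split therefore runs through all 3 comparisons, partly together with the groups, and results that rest on it are also given within the libraries that had Y-linked transcripts.

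Expression of the family was dominated by a pair of receptors. In controls Tnfrsf19, a receptor found on neural progenitors, stood at 24.6 ± 2.53 CPM per kilobase (SD, n = 5) and Tnfrsf21, a death domain receptor of neurons, at 22.4 ± 0.652 CPM per kilobase, a difference smaller than the SD of Tnfrsf19. Together they made up 71.9% ± 2.24 of the summed receptor level per kilobase. Tnfrsf1a followed at 4.45 ± 0.299 CPM per kilobase and Ltbr, the lymphotoxin beta receptor, at 4.09 ± 0.558, again without separation beyond the SD. Ligands were scarcer. The leading ligand was Tnfsf12 (TWEAK) at 2.42 ± 0.431 CPM per kilobase, next to Eda, a ligand of skin and tooth development, at 1.60 ± 0.194, and these made up 66.7% ± 4.31 of the ligand sum.

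**Figure D1:**
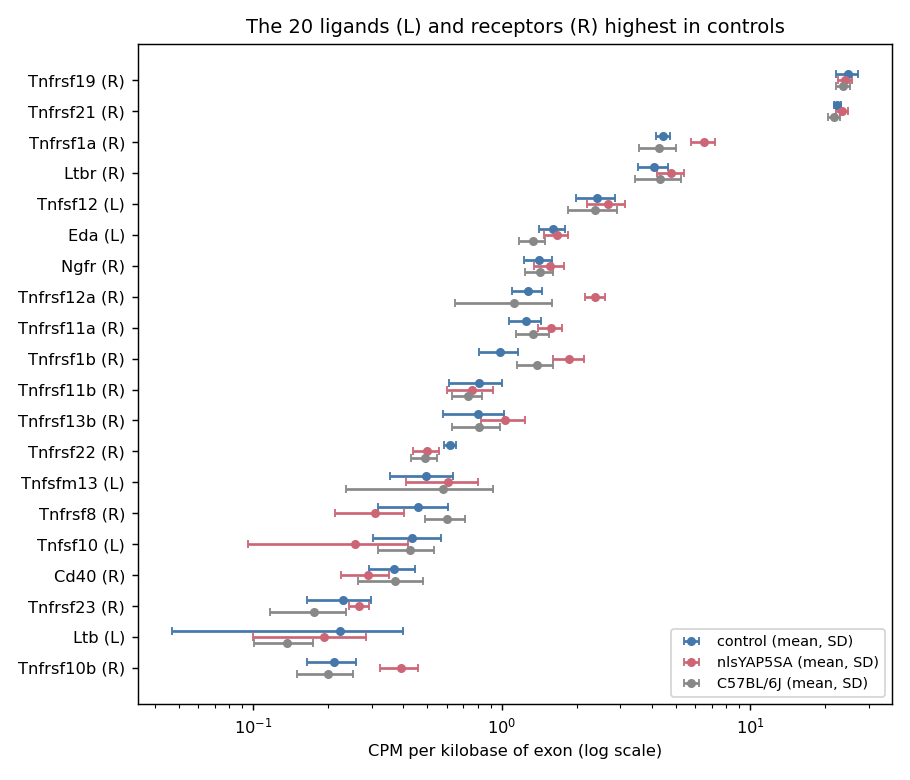
Mean CPM per kilobase of exon (log axis, bars SD) in control (n = 5), nlsYAP5SA (n = 5) and C57BL/6J (n = 3) hemispheres for the 20 genes of the family that were highest in controls. Tnfrsf19 and Tnfrsf21 stood above all others in each group, and the nlsYAP5SA means of Tnfrsf1a, Tnfrsf12a, Tnfrsf1b and Tnfrsf10b lay to the right of the control means.

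Below these the order in controls ran through Ngfr (1.41 ± 0.179 CPM per kilobase), Tnfrsf12a (1.27 ± 0.177) and Tnfrsf11a (1.25 ± 0.181), which did not differ beyond their SD. Many genes of the family were near the limit of detection. Of the 19 ligands, 11 were under 10 counts in every control and 13 in every C57BL/6J library, against 8 in every nlsYAP5SA library. Of the 27 receptors, 8 were under 10 counts in every control, 9 in every nlsYAP5SA library and 8 in every C57BL/6J library. Cd40lg, a T cell ligand, had 0 counts in all 13 libraries, and Tnfsf4 and Tnfsf14 had at most 1 count in any library.

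The comparison of nlsYAP5SA with control hemispheres asks what the tumour-bearing brain expressed differently. Of the 46 genes, 23 had enough counts to be tested, 5 ligands and 18 receptors. The receptors Fas, Eda2r, Tnfrsf1b, Tnfrsf12a, Tnfrsf10b and Tnfrsf1a rose, 6 of the 18 tested. Calls rest on the quasi-likelihood test of edgeR with p-values adjusted after Benjamini and Hochberg over all genes. Among all 16315 genes tested 10.8% were called, 7.36% higher and 3.44% lower. No receptor was called lower by edgeR or by DESeq2, although Tnfrsf22 and Tnfrsf8 had lower means with an unadjusted p under 0.05. Of the 5 tested ligands edgeR called 0 and DESeq2 0, and 0 had an unadjusted p under 0.05. The 23 tested genes of the family had a median log2 fold change of 0.22, the 18 receptors 0.22 and the 5 ligands 0.14, beside -0.01 over all genes tested. Of the 23, Fas and Eda2r met the low-count filter through the nlsYAP5SA libraries alone and Edar through the controls alone, so that these 3 entered because of 1 group. Every nlsYAP5SA library lay above every control for 6 of the 23 genes, those called, and for 6.49% of all genes tested. Since the calls and this arrangement use the same values, and Fas and Eda2r entered through the higher group, the count is a description.

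**Figure D2:**
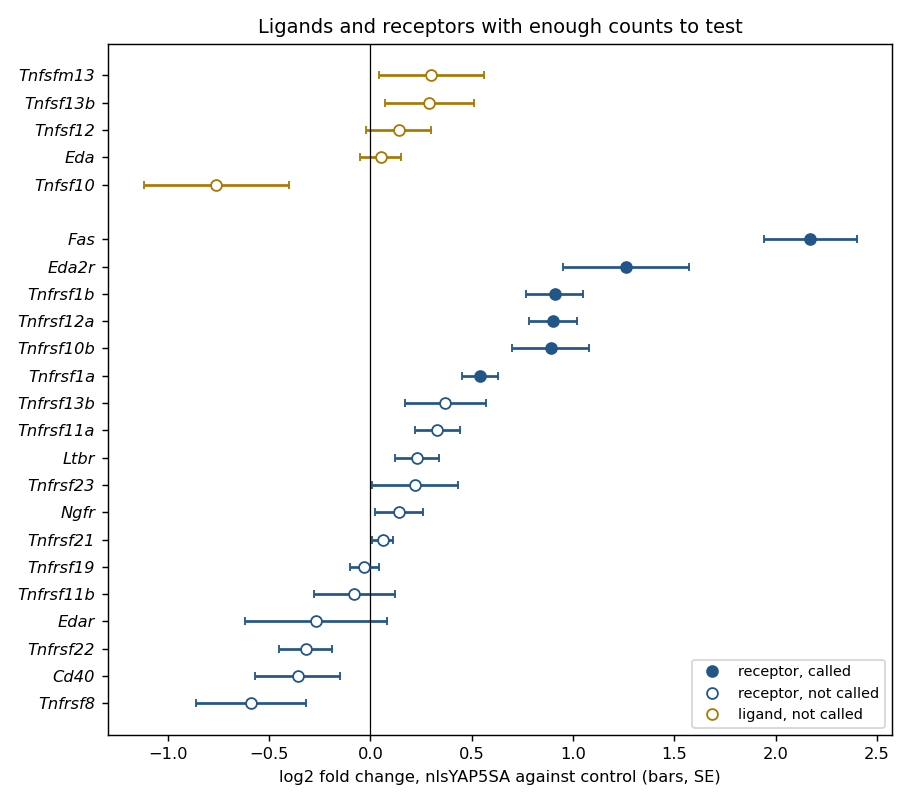
Log2 fold change (bars SE) of the 23 tested genes, nlsYAP5SA against control, with ligands above and receptors below. Filled points passed the adjusted p threshold of 0.05, which the 6 receptors from Fas (2.17) to Tnfrsf1a (0.54) did and no ligand did.

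Of the 7 receptors with a death domain 6 were tested, and Fas, Tnfrsf10b and Tnfrsf1a rose. Fas, the receptor through which Fas ligand starts apoptosis, was measured at 0.490, 0.313, 0.50, 0.210 and 0.378 CPM in controls 1 to 5. In nlsYAP5SA libraries 1 to 5 it was at 1.81, 1.98, 1.47, 1.48 and 1.92 CPM, and in the C57BL/6J libraries at 0.448, 0.670 and 0.282 CPM. The nlsYAP5SA libraries did not overlap with the other groups. The log2 fold change against control was 2.17 (SE 0.23, adjusted p = 6.93e-05, edgeR), the largest of the tested genes of the family. Its ligand Fasl, a product of cytotoxic lymphocytes, had 1 to 5 counts in controls and 2 to 3 counts in nlsYAP5SA libraries, too few to compare.

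Tnfrsf10b, the mouse death receptor for TRAIL, was at 0.899, 1.17, 0.916, 1.26 and 1.51 CPM in controls. It was at 2.48, 2.45, 1.56, 2.17 and 2.01 CPM in nlsYAP5SA hemispheres and at 1.03, 1.39 and 0.847 CPM in C57BL/6J. The lowest nlsYAP5SA library, replicate 3, exceeded the highest control, replicate 5, only narrowly. The log2 fold change was 0.89 (SE 0.19, adjusted p = 0.0101, edgeR), and the call was lost with the Y-linked level as covariate (0.71, adjusted p = 0.181) and within the libraries with Y-linked transcripts (0.69, 0.365). The ligand TRAIL (Tnfsf10) had a lower mean where its receptor was higher: 1.51, 1.76, 2.92, 2.18 and 3.12 CPM in controls and 0.903, 1.60, 0.520, 2.69 and 1.03 CPM in nlsYAP5SA. These groups overlapped, with nlsYAP5SA replicates 2 and 4 above the lowest control, and the difference of -0.76 (SE 0.36, adjusted p = 0.224, edgeR) was not called; without replicate 4 it was -1.18 and passed at 0.0334.

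Tnfrsf1a, the death domain receptor for TNF and lymphotoxin alpha, was the most abundant receptor that changed. It was at 12.5, 11.2, 10.5, 11.6 and 11.9 CPM in controls and 18.6, 18.3, 14.0, 16.9 and 16.2 CPM in nlsYAP5SA. The C57BL/6J libraries, at 9.86, 13.3 and 10.2 CPM, lay on both sides of the control range, and all were below the nlsYAP5SA libraries. The log2 fold change was 0.54 (SE 0.09, adjusted p = 0.00167, edgeR), with the call lost at 0.42 (adjusted p = 0.0535) with the Y-linked covariate and at 0.41 (0.130) within the libraries with Y-linked transcripts, and the mean per kilobase moved from 4.45 ± 0.299 to 6.48 ± 0.705. The other tested death domain receptors were not called: Tnfrsf21 with a difference of 0.06 (SE 0.05), Ngfr, a neurotrophin receptor, with 0.14 (SE 0.12) and Edar with -0.27 (SE 0.35).

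Of the 16 receptors that recruit TRAFs without a death domain 9 were tested, and Tnfrsf12a, Tnfrsf1b and Eda2r rose. Tnfrsf12a (Fn14), the TWEAK receptor of growing and injured tissue, was at 3.02, 2.15, 2.29, 2.31 and 2.5 CPM in controls and at 5.06, 3.95, 4.42, 4.87 and 4.73 CPM in nlsYAP5SA. C57BL/6J libraries were at 2.15, 3.06 and 1.25 CPM, so nlsYAP5SA stood apart from both groups. The log2 fold change was 0.90 (SE 0.12, adjusted p = 0.000478, edgeR). Its ligand Tnfsf12 was at 2.98 to 4.37 CPM in controls and 3.01 to 4.78 CPM in nlsYAP5SA, with a difference of 0.14 (SE 0.16, adjusted p = 0.643, edgeR). In nlsYAP5SA hemispheres the means per kilobase of Tnfrsf12a (2.38 ± 0.224) and Tnfsf12 (2.67 ± 0.469) were within an SD of each other, where controls had 1.27 ± 0.177 of the receptor. Tnfsf12 shares exons with the readthrough gene Tnfsfm13 on chromosome 11, so the division of reads between them is uncertain.

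Tnfrsf1b, the TNF receptor without a death domain that is prominent on microglia, was at 4.09, 3.87, 3.08, 4.66 and 3.12 CPM in controls. It was at 7.68, 7.20, 5.41, 7.34 and 8.0 CPM in nlsYAP5SA and at 5.02, 6.23 and 4.56 CPM in C57BL/6J. The nlsYAP5SA libraries lay above every control, but C57BL/6J replicate 2 exceeded nlsYAP5SA replicate 3. The log2 fold change against control was 0.91 (SE 0.14, adjusted p = 0.00103, edgeR), and the call was lost within the libraries with Y-linked transcripts (0.75, adjusted p = 0.106). Both TNF receptors thus rose, while lymphotoxin alpha (Lta) was at 0 to 7 counts in every library.

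Eda2r, the X-linked receptor for the A2 form of ectodysplasin, was at 0.204, 0.978, 0.833, 0.671 and 0.661 CPM in controls and 1.26, 1.98, 1.17, 1.78 and 1.87 CPM in nlsYAP5SA. C57BL/6J libraries were at 0.672, 0.479 and 1.01 CPM. No nlsYAP5SA library fell into the range of the others, and control replicate 1 was the lowest of all. The log2 fold change was 1.26 (SE 0.31, adjusted p = 0.0198, edgeR), and the call was lost without nlsYAP5SA replicate 2 (1.18, adjusted p = 0.0557) or replicate 5 (1.20, 0.0567), with the Y-linked level as covariate (1.16, 0.192) and within the libraries with Y-linked transcripts (1.13, 0.365). Its ligand gene Eda differed by 0.05 (SE 0.10), as measured for both splice forms together. The remaining tested receptors of this group were not called: Tnfrsf11a (RANK) at 0.33 (SE 0.11, adjusted p = 0.0843, edgeR), Tnfrsf13b at 0.37 (SE 0.20), Ltbr at 0.23 (SE 0.11), Tnfrsf19 at -0.03 (SE 0.07), Cd40 at -0.36 (SE 0.21) and Tnfrsf8 at -0.59 (SE 0.27).

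**Figure D3:**
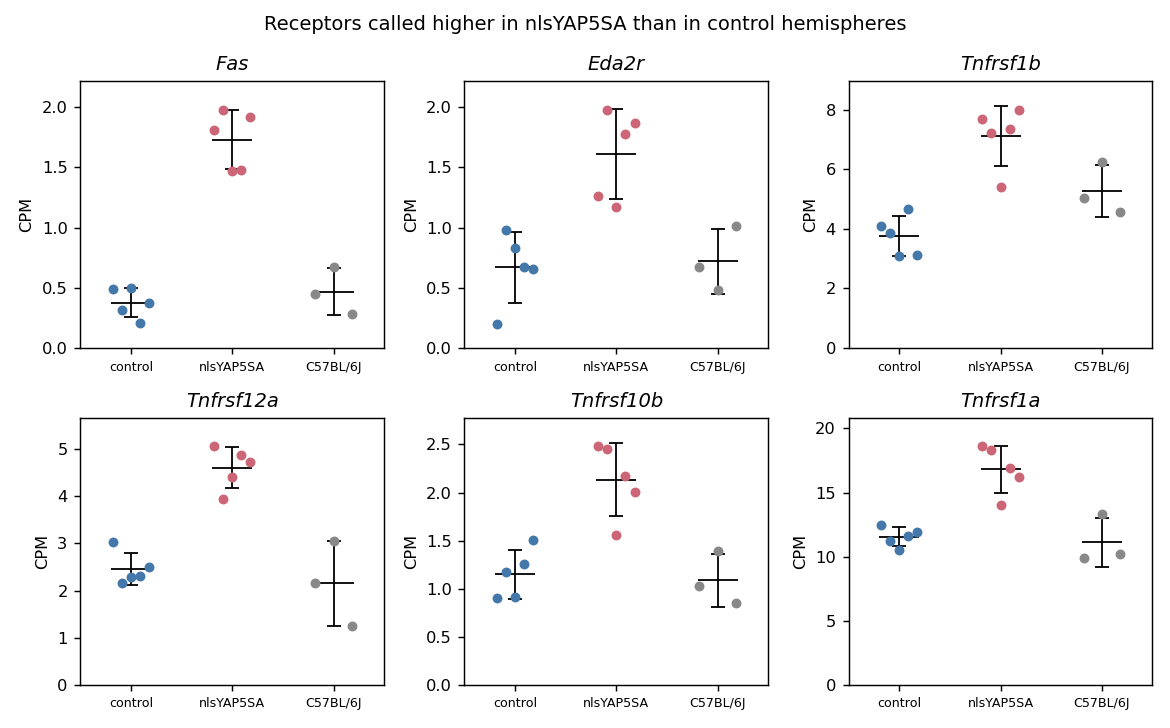
CPM of the 6 receptors called higher in nlsYAP5SA than in control, by group (points, libraries; horizontal lines, means; bars, SD). Every nlsYAP5SA library lay above every control in all 6, and above every C57BL/6J library in all but Tnfrsf1b.

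Of the 4 decoy receptors 3 were tested. Neither edgeR nor DESeq2 called any of the 3, of which 1 had an unadjusted p under 0.05, and their median log2 fold change was -0.08. Tnfrsf11b (osteoprotegerin), which binds both RANK ligand and TRAIL, differed by -0.08 (SE 0.20). The TRAIL decoys Tnfrsf22 and Tnfrsf23 differed by -0.32 (SE 0.13, adjusted p = 0.137, edgeR) and 0.22 (SE 0.21). Tnfrsf22, Tnfrsf23 and Tnfrsf26 lie side by side on chromosome 7 and resemble each other, so reads may have been divided between them.

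Bases before the start sites of the called receptors are printed to show which hold the letters bound by TEAD, the DNA-binding partners of YAP1, or by AP-1. Both strands of the RefSeq windows, 250 bases before to 50 after the start (GRCm38.p6), were searched for GGAATG (TEAD), TGANTCA (AP-1) and GGG followed after any 2 bases by TTTCC (NF-κB); a window was given for 5 of the 6 receptors, Tnfrsf10b being the other one. TEAD letters were in 2 of 5 and in 14.7% of all 32851 windows, AP-1 letters in 1 of 5 and in 7.81%, and NF-κB letters in 0 of 5 and in 1.63%. The motifs do not overlap each other in these windows. The stretches are on the strand of the gene, 5′ to 3′, with the matches in capitals: Tnfrsf1b at chr4:145246897-145247083 (minus strand, matches beginning 183 and 62 bases before the start), Eda2r at chrX:97377210-97377271 (minus strand, 32 bases before) and Fas at chr19:34290418-34290484 (plus strand, 211 bases before).
Tnfrsf1b: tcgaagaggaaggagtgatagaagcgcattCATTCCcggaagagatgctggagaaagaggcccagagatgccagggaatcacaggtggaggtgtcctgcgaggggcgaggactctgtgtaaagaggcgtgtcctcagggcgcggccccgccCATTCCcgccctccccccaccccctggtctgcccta
Eda2r: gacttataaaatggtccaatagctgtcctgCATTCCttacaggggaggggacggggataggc
Fas: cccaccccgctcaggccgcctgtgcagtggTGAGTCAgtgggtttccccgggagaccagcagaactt
In Tnfrsf1b and Eda2r the TEAD letters run on the other strand, so CATTCC is printed. The windows of Tnfrsf12a and Tnfrsf1a held none of the 3 motifs, which says nothing of sites elsewhere.

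Of the 19 ligands 14 had too few counts for the test, and here a pair of ligands appeared almost only in nlsYAP5SA libraries. Tnfsf18 (GITR ligand), a costimulator of T cells, had 0, 3, 0, 0 and 0 counts in controls, 5, 23, 11, 14 and 18 counts in nlsYAP5SA and 0 counts in each C57BL/6J library. All nlsYAP5SA libraries were above all others. Over the group this was 71 counts against 3, a ratio per CPM of 25.4 with a 95% counting interval of 8.35 to 126 (exact, counting error only), and at least 14.5-fold over C57BL/6J, taking the floor of 3 counts over that group. Tnfsf18 did not pass the low-count filter of this comparison but was called in the fit without it (adjusted p = 0.000833, edgeR). The other fits that tested it did so only because of its nlsYAP5SA counts, so their calls are not counted here. Its receptor Tnfrsf18 was at 3 to 9 counts in both controls and nlsYAP5SA.

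Tnfsf8 (CD30 ligand), another ligand of lymphocyte costimulation, had 1 count over the 5 controls and 0 in C57BL/6J, against 6, 8, 1, 11 and 11 counts in nlsYAP5SA. Replicate 3 of nlsYAP5SA, with 1 count, was level with control replicate 2. The ratio of the groups was 39.7 with a counting interval of 6.70 to 1610, and the fit without the filter called it (adjusted p = 0.00246, edgeR). The CD30 receptor Tnfrsf8 was at 1.96, 2.19, 1.08, 1.09 and 1.65 CPM in controls and 0.813, 1.27, 0.823, 0.869 and 1.54 CPM in nlsYAP5SA, overlapping groups that were not called apart (adjusted p = 0.195, edgeR).

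Tnf itself had 1, 1, 0, 0 and 0 counts in controls and 1, 5, 1, 8 and 5 counts in nlsYAP5SA, with 1, 1 and 0 in C57BL/6J. The 20 counts against 2 gave a ratio of 10.7 with a counting interval of 2.61 to 94.8. The nlsYAP5SA replicates 1 and 3 had no more counts than the highest controls, and the fit without the filter did not call it (adjusted p = 0.0501, edgeR). Tnfsf11 (RANK ligand) had 1 to 4 counts in controls and 2 to 12 in nlsYAP5SA (adjusted p = 0.162 without the filter, edgeR). Tnfsf9, Ltb and Tnfsf13 reached at most 17, 20 and 21 counts in a library, and Lta, Cd70, Tnfsf15 and Fasl at most 7. The other ligands under the filter gave adjusted p from 0.446 (Cd70) to 0.982 (Fasl, Tnfsf13, Tnfsf4) in that fit, and were not distinguishable at this depth.

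The 9 receptors under the filter were mostly receptors of lymphocytes. Tnfrsf13c, the BAFF receptor of B cells, had 6, 2, 7, 5 and 4 counts in controls and 9, 7, 7, 7 and 7 counts in nlsYAP5SA (adjusted p = 0.433 without the filter, edgeR). Tnfrsf25 had 3 to 16 counts in controls and 3 to 9 in nlsYAP5SA (adjusted p = 0.528 without the filter, edgeR). Cd27, Tnfrsf4, Tnfrsf9, Tnfrsf14, Tnfrsf17, Tnfrsf18 and Tnfrsf26 had at most 9 counts in any library and adjusted p of 0.476 or more in that fit.

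**Figure D4:**
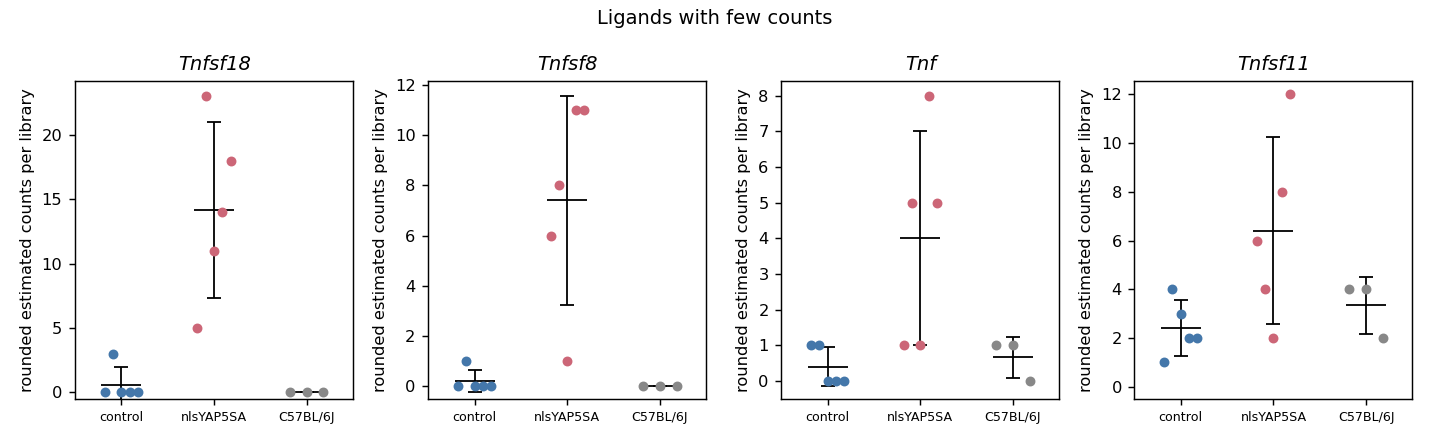
Rounded estimated counts per library (points; lines, means; bars, SD) of the ligands Tnfsf18, Tnfsf8, Tnf and Tnfsf11. Tnfsf18 reached 5 to 23 counts in nlsYAP5SA libraries and at most 3 elsewhere, while single nlsYAP5SA libraries of the other ligands lay in the range of the controls.

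Of the tested ligands besides Tnfsf12, Eda and Tnfsf10, Tnfsf13b (BAFF), a B cell survival factor, differed by 0.29 (SE 0.22) and the readthrough gene Tnfsfm13 by 0.30 (SE 0.26). Summed per kilobase, ligands were at 5.07 to 7.01 in controls and 6.49 to 8.35 in nlsYAP5SA, and receptors at 62.7 to 66.5 and 65.5 to 76.0, with overlap in both. The share of Tnfrsf19 and Tnfrsf21 in the receptor sum was 66.3% ± 0.971 in nlsYAP5SA against 71.9% ± 2.24 in controls.

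Within the libraries that had Y-linked transcripts, 5 controls against nlsYAP5SA replicates 3 and 4, the separation of the 6 receptors follows from that in all libraries and adds nothing to it, so only the sizes and tests are given. Fas differed there by 1.94 (adjusted p = 0.0196, edgeR) and Tnfrsf12a by 0.91 (0.0308). Tnfrsf1b, Tnfrsf1a, Tnfrsf10b and Eda2r, whose values are given above, were not called by edgeR in this smaller set, in which 334 genes were called in all against 1761. With the Y-linked level as a covariate Fas, Tnfrsf12a and Tnfrsf1b were called.

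Downstream of the receptors, 52 genes of the pathway were listed and 47 tested, of which 7 were called higher, with a median log2 fold change of 0.11, beside 7.36% and -0.01 over all genes tested. Lcn2 and Cxcl10, among the 7, met the low-count filter through the nlsYAP5SA libraries alone, so the 7 of 47 is a description. No pathway gene was called lower by edgeR or DESeq2, and 1 had a lower mean with an unadjusted p under 0.05. Of 10 adaptors and TRAFs edgeR called 0 and DESeq2 0, and 0 had an unadjusted p under 0.05. Of 10 tested kinases, caspase and necroptosis genes, Tab2, an adaptor of the TAK1 kinase, was called at 0.26 (SE 0.05, adjusted p = 0.00668, edgeR), a call lost with the Y-linked level as covariate (0.25, adjusted p = 0.101) and within the libraries with Y-linked transcripts (0.24, 0.238). Of 11 tested ubiquitin ligases, deubiquitinases and their partners, Birc3, a ligase of the TNF receptor complex, rose by 0.74 (SE 0.18, adjusted p = 0.0171, edgeR) and Tnip2, which binds the deubiquitinase A20, by 0.38 (SE 0.10, 0.0291). The Birc3 call was lost with the Y-linked covariate (0.43, adjusted p = 0.37, edgeR) and within the libraries with Y-linked transcripts (0.41, 0.617). It was also lost with the replicate block (0.73, adjusted p = 0.0737, edgeR) and without nlsYAP5SA replicate 1 (0.68, 0.0506) or 5 (0.68, 0.0513). The Tnip2 call was lost in 11 alternatives, with log2 fold changes of 0.34 to 0.41. Their adjusted p ran from 0.0517 (library size alone) to 0.285 (libraries with Y-linked transcripts) in edgeR. Among them were leaving out control replicate 2, 3 or 5 or nlsYAP5SA replicate 2 or 3.

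Of the 5 genes of ligand and receptor shedding, Timp3, an inhibitor of the TNF-releasing protease Adam17, rose from 120 ± 7.10 CPM (SD, n = 5) to 227 ± 27.3 CPM (log2 fold change 0.92, SE 0.08, adjusted p = 1.66e-05, edgeR), while Adam17 differed by 0.06 (SE 0.09). Of 11 tested genes known to respond to TNF, 3 were called. Icam1, an adhesion molecule, went from 3.21 ± 0.466 to 6.04 ± 0.984 CPM (adjusted p = 0.000883, edgeR). Lcn2, an acute-phase protein of reactive astrocytes, went from 0.109 ± 0.0621 to 3.50 ± 2.13 CPM (adjusted p = 0.000315, edgeR), and the chemokine Cxcl10 from 0.205 ± 0.164 to 1.92 ± 1.27 CPM (adjusted p = 0.00229, edgeR). Lcn2 and Cxcl10 met the low-count filter through the nlsYAP5SA libraries alone, with 0 and 1 of 5 controls over 0.434 CPM. Nfkbia, the NF-κB inhibitor and a classical target, differed by 0.32 (SE 0.14, adjusted p = 0.167, edgeR) and Tnfaip3 by 0.10 (SE 0.12).

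Markers of several cell types, but not of all, differed between nlsYAP5SA and control hemispheres. Of 10 microglial markers 9 were called higher, and their summed level was 321 to 399 CPM in controls, 471 to 628 CPM in nlsYAP5SA and 341 to 406 CPM in C57BL/6J. Within the libraries with Y-linked transcripts 5 of the 10 were called higher. Astrocyte markers were called higher for 5 of 8, at sums of 3280 to 5740 and 5150 to 7170 CPM, and endothelial markers lower for 4 of 8, at 297 to 359 and 228 to 290 CPM. Of the 7 tested markers of perivascular macrophages and monocytes 3 were called higher, at 17.7 to 30.1 and 26.3 to 45.4 CPM. Lymphocyte markers, the cell type of several ligands and receptors above, summed to 3.60 to 4.70 CPM in controls and 3.72 to 5.92 CPM in nlsYAP5SA, with Ncr1 at 0 counts and Cd3e at no more than 2 in any library. Ciliated ependymal markers summed to 12.3 to 26.9 CPM in controls and 25.4 to 30.4 CPM in nlsYAP5SA, with 1 of 7 called higher, as was 1 of 7 choroid plexus markers. Tmem212 of the ependymal list and Folr1 of the choroid plexus list met the low-count filter through the nlsYAP5SA libraries alone, so both counts are a description. Markers of oligodendrocyte precursors were called lower for 2 of 5 and of neurons for 1 of 8. The neuron markers include Neurod6, the locus that carries Cre on an allele in the nlsYAP5SA mice alone. Neurod6 was at 91.5 to 110 CPM in controls and 38.9 to 56.7 CPM in nlsYAP5SA. The part of the altered allele in this was not tested. Of 7 pericyte and smooth muscle markers 1 was called higher and 2 lower, and of 7 meningeal fibroblast markers 1 higher and 1 lower. Of 6 oligodendrocyte markers edgeR called 0 and DESeq2 2, with 5 at an unadjusted p under 0.05 and sums of 2080 to 3480 CPM in controls and 1330 to 2870 CPM in nlsYAP5SA. The 6 neutrophil markers had too few counts for the test. The part of these cell types in the receptor differences was not tested.

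C57BL/6J and control hemispheres were compared as the groups without Cre. By the study's account the controls were littermates of the nlsYAP5SA mice and the C57BL/6J mice were not, so genotype and litter cannot be told apart in either comparison with C57BL/6J. Replicate 2, the C57BL/6J library without Y-linked transcripts, was the highest of the 3 for Fas, Tnfrsf10b, Tnfrsf12a, Tnfrsf1a and Tnfrsf1b and the lowest for Eda2r. Of 25 tested genes of the family 0 were called by edgeR or by DESeq2, and 2 had an unadjusted p under 0.05, Tnfrsf1b at 0.48 (SE 0.17) and Tnfrsf22 at -0.34 (SE 0.14). Of all 16546 genes 0.169% were called. Of the 6 receptors called against control, Tnfrsf1b had the smallest log2 difference between nlsYAP5SA and C57BL/6J, with a C57BL/6J mean of 5.27 ± 0.861 CPM (SD, n = 3) between 3.76 ± 0.670 in controls and 7.13 ± 1.01 in nlsYAP5SA.

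Set against C57BL/6J, nlsYAP5SA was higher for Fas, Tnfrsf12a, Tnfrsf10b, Tnfrsf1a and Tnfsf18, 5 of 27 tested genes of the family, where 4.16% of 16641 genes were called higher and 2.22% lower. That background of 692 genes called higher was itself unsteady, at 302 without C57BL/6J replicate 1, 460 without C57BL/6J replicate 2, 445 without nlsYAP5SA replicate 2 and 396 without nlsYAP5SA replicate 5. Fas and Tnfsf18 met the filter of this comparison through the nlsYAP5SA libraries alone, where they were higher, so the 5 of 27 is a description. The comparison shares its nlsYAP5SA libraries with the one against control, so it is not independent of it. The log2 fold changes were 1.88 for Fas (SE 0.29, adjusted p = 0.00535), 1.09 for Tnfrsf12a (SE 0.24, 0.0281), 0.96 for Tnfrsf10b (SE 0.24, 0.0423) and 0.58 for Tnfrsf1a (SE 0.13, 0.0303) in edgeR. Tnfsf18 was called with an adjusted p of 0.0146 (edgeR). With the Y-linked level as covariate 4 of these 5 were called (Tnfrsf10b at adjusted p = 0.0553, edgeR), and within the libraries with Y-linked transcripts, 2 in each group, 0, in a fit that called 47 genes in all (43 higher) against 1061 (692 higher). For the receptors the log2 fold changes in that smaller set were 2.0 for Fas, 1.45 for Tnfrsf12a, 0.98 for Tnfrsf10b and 0.61 for Tnfrsf1a. Eda2r at 1.13 (SE 0.30, adjusted p = 0.0570) and Tnfrsf1b at 0.42 (SE 0.16, 0.160) were not called by edgeR. Every nlsYAP5SA library lay above every C57BL/6J library for 7 of the 27 genes, beside 8.71% of all genes tested, which is a description since Fas and Tnfsf18 are among the 7.

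Tnfrsf8 lay below in this comparison, with 1.73 to 2.49 CPM in C57BL/6J and 0.813 to 1.54 CPM in nlsYAP5SA and no overlap, at -0.98 (SE 0.26, adjusted p = 0.0569, edgeR). Tnfrsf25, a death domain receptor of T cells, also lay below without overlap, at -1.04 (SE 0.35, adjusted p = 0.120, edgeR). It met the filter through the C57BL/6J libraries alone, where it was higher, so that the 2 of 27 genes below without overlap are a description, beside 6.48% of all genes. No gene of the family was called lower by edgeR, 2 had a lower mean with an unadjusted p under 0.05, and DESeq2 called Tnfrsf8. Calls against the 3 C57BL/6J libraries were less stable than those against controls: Tnfrsf1a and Tnfrsf10b kept theirs when 2 of the 8 libraries were left out in turn and Tnfrsf12a when 4 were. Fas and Tnfsf18 were called in all 8, which is no further support since they entered through the higher group. Of the 52 pathway genes 49 were tested and 4 called higher: Timp3, Lcn2, Cxcl10 and the chemokine Ccl2, of which all but Timp3 met the filter through the nlsYAP5SA libraries alone. Cell type markers differed here too, with 5 of 10 microglial and 2 of 8 astrocyte markers called higher. Of oligodendrocyte and endothelial markers 2 of 6 and 1 of 8 were called lower. Within the libraries with Y-linked transcripts 0 microglial markers were called higher. The part of these cell types was not tested.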

How the data were processed

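The authors deposited estimated counts by gene, which RSEM 1.3.0 gave for reads of KAPA mRNA HyperPrep libraries trimmed with cutadapt 1.5 and mapped with STAR to GRCm38, without normalization; between libraries 12.4% to 13.3% of the values were not whole. RSEM divides reads among similar or overlapping genes, and a strand setting is not given in the sources used here. Counts were rounded. Each pair of groups was fitted alone with edgeR 4.0.16 (R 4.3.3): filterByExpr (minimum count 10, minimum total 15), TMM factors, quasi-likelihood F-test, Benjamini-Hochberg adjustment over all genes, calls at 0.05. SE is the fold change over the root of F. The code was tested on simulated data. Exon lengths and positions come from GENCODE M21, promoters from RefSeq. The genes, pathway lists and marker lists were chosen with earlier results of these data known. Genes called in any comparison are given by library, other tested genes by fold change, untested genes by counts, and up to 3 called genes per pathway list. DESeq2 1.42.0, other scalings, filters, covariates, a replicate block and leaving out libraries were alternatives. Labels name separate mice but no litters or sexes. Ratios of few counts carry exact 95% binomial intervals, which cover counting error only.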

Additional observations from a re-analysis of the deposited data

Results flagged for a closer look

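In 3 cases a library of a group of 5 stood apart from the rest by Dixon's criterion, among 60 group and gene combinations examined, of which chance alone picks about 1 in 20. Eda was at 13.5 CPM in nlsYAP5SA replicate 4, where the other nlsYAP5SA libraries were at 10.7 to 11.2 CPM. Ltbr was at 13.7 CPM in the same library, against 10.4 to 11.1 CPM in the others. Tnfrsf19 was at 96.0 CPM in control replicate 1, against 116 to 125 CPM in the other controls. None of these genes was called in any of the comparisons.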

How the results depend on the processing

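Against control, 6 receptors were called, and 4 with at least 10 counts in every sample, where Fas and Eda2r could not be tested. Without the filter 8 genes of the family were called higher, the added ones being Tnfsf18 and Tnfsf8. Tnfrsf12a was called in all 20 alternatives. Fas was called in the 19 that could test it, which is no further support since it entered through the higher group. With the Y-linked level as covariate 3 genes of the family were called higher (Fas, Tnfrsf12a, Tnfrsf1b; Tnfrsf1a at adjusted p = 0.0535), and 3 within libraries with Y-linked transcripts alone (Fas, Tnfrsf12a and Tnfsf18, the last of which was tested there only because of its nlsYAP5SA counts), an alternative chosen after seeing the data; 547 and 334 genes of all were called in these fits against 1761. Leaving out a library gave 5 to 7 called higher and 0 to 1 lower, the latter Tnfsf10 without nlsYAP5SA replicate 4. The 5 to 7 include Tnfsf18 wherever it was tested, which was only because of its nlsYAP5SA counts. Against C57BL/6J, 5 were called higher, 2 to 6 with a library left out (2 without nlsYAP5SA replicate 1, 4 or 5 or C57BL/6J replicate 1, 3 without nlsYAP5SA replicate 2), and 0 within libraries with Y-linked transcripts alone; 1 was called lower (Tnfrsf8, 0 in the reported fit) with at least 10 counts in every sample, with DESeq2, with all 13 samples in a single fit and with the Y-linked covariate, and 0 to 1 with a library left out.

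Replicate numbers did not pair the samples: deviations of same-numbered control and nlsYAP5SA libraries correlated from -0.315 to 0.312, and 2 of 10 libraries correlated best with their own number; for C57BL/6J and control these were -0.023 to 0.486 and 3 of 6, for nlsYAP5SA and C57BL/6J -0.275 to 0.0731 and 0 of 6, so that in no comparison was every pair over 0.1. With the replicate block 6 genes of the family were called against control, and 0 against C57BL/6J, where 47 of all genes were called instead of 1061.

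Differences that were not called changed sign as follows against control: Edar 0.05 and Tnfrsf11b 0.03 with the Y-linked covariate, Edar 0.05, Tnfrsf11b 0.01 and Tnfsfm13 -0.02 within libraries with Y-linked transcripts, Tnfrsf19 0.01 with the Ttr level as covariate, and Eda -0.02 to 0.11 with a library left out. For C57BL/6J against control, Fas was -0.04 with the Y-linked covariate and -0.06 within libraries with Y-linked transcripts, and Tnfrsf10b was 0.11 with the replicate block; with a library left out Fas ranged from -0.06 to 0.54, Eda2r from -0.23 to 0.33, Tnfrsf10b from -0.29 to 0.06, Tnfrsf12a from -0.53 to 0.07 and Tnfrsf1a from -0.20 to 0.02. All genes called in that comparison were 16 with the stricter filter, 59 with DESeq2, 44 in the single fit and 15 with the block, against 28; for nlsYAP5SA against C57BL/6J, 1596 with DESeq2 and 401 (without C57BL/6J replicate 1) to 1757 (without C57BL/6J replicate 3) with a library left out, against 1061. The 7 pathway calls became 4 in both Y-linked fits and 11 without nlsYAP5SA replicate 3; the 4 pathway calls against C57BL/6J ranged from 0 with the block to 8 in the single fit. The causes were not tested. At this depth 8 of 19 ligands and 8 of 27 receptors stayed under 10 counts in every library.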
